A study of Mus musculus with 21 samples.

Results

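The insulin and insulin-like growth factor (IGF) signalling genes were followed in the ventral hypothalamus of mice on regular chow (RC), on high-fat diet (HFD), or a week after a switch between them. The members were the genes of the deposited read count table with the symbol Insr, Igf1r, Irs1, Irs2, Irs4, Pik3ca, Pik3r1, Akt1, Akt2 or Foxo1, and all 10 were among its 21654 genes. The study placed male C57BL/6J mice (strain C57/BL6 in the labels), aged 12 to 14 weeks when bought, on RC or HFD for weeks and then either kept the diet (no diet switch, NoDS) or exchanged it (RC → HFD and HFD → RC). By the study, in the week after the switch RC → HFD mice gained weight and HFD → RC mice lost it. At the end of that week HFD → RC mice also ate fewer calories than every other group. On the last day every group was kept awake for 3 h with unfamiliar objects, and tissue was taken in the light phase, at ZT6 (zeitgeber hour after lights on) or within the hour after it. Each polyA RNA library pooled RNA from the punches of 2 mice of a group, so a value is the average of a pair of animals. In all 21 libraries were read: 5 of RC NoDS, 6 of RC → HFD, 5 of HFD → RC and 5 of HFD NoDS.

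Insulin and the IGFs bind receptor tyrosine kinases, which phosphorylate insulin receptor substrate (IRS) adaptors. The adaptors dock PI3-kinase, whose lipid product brings the kinase AKT to the membrane, and active AKT keeps FOXO transcription factors out of the nucleus. In the arcuate nucleus this pathway acts in the Agrp/Npy and Pomc neurons that set food intake. The measurement here is mRNA, and most of the pathway's regulation is by phosphorylation, which was not measured.

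The libraries held between 16380781 and 16390598 reads in genes, because the study had re-sampled them to a common depth. They differed in complexity. From the share of zero counts among genes averaging 5 to 50 reads, the number of distinct molecules was estimated. Its group means were 6176781 ± 1643263 in RC NoDS, 3666150 ± 1988903 in RC → HFD, 2670660 ± 1232432 in HFD → RC and 2597716 ± 968791 in HFD NoDS (SD; n = 5, 6, 5 and 5). RC NoDS libraries were thus the most complex as a group, and the lowest estimate, 1202431, was for HFD NoDS replicate 20, next to 1247637 for HFD → RC replicate 17. The punches carried the markers of their labelled tissue: all 8 ventral hypothalamus markers were read, their sum lay between 13150 and 23831 reads in the 21 libraries, and Pomc was the most abundant with 8304 reads on average. All 4 paraventricular markers were read as well, and the 2 lateral hypothalamus markers, Hcrt and Pmch, summed to between 378 and 2400 reads.

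All 10 members averaged at least 50 reads over the 21 libraries, the study's High Filter, as did 12768 genes in all. Per kilobase of annotated exon the order of the mean levels was Akt1 with 925 reads per kb, Irs4 with 783, Irs2 with 399, Pik3r1 with 232, Foxo1 with 144, Akt2 with 130, Pik3ca with 107, Igf1r with 100, Insr with 97.1 and Irs1 with 23.0. Akt1 and Irs4 were high on this scale, above 91.7% and 89.9% of the genes that passed the filter, while Irs1 was above 6.40% of them. Taken library by library, Pik3ca per kb exceeded Insr in 17 of 21 libraries and Igf1r in 16, and Igf1r exceeded Insr in 9. An annotated gene on the opposite strand overlaps 6 of the 10 members (Insr, Irs1, Irs2, Irs4, Pik3r1 and Foxo1), and how the counting used strand is not given in the sources used here. Of these partners 2 had counts of their own, with means of 5.95 reads for 9530052E02Rik beside Irs2 and 0.571 reads for Gm15295 beside Irs4. A pseudogene copy, Akt2-ps, had a mean of 5.81 reads, so reads shared with it could be a small part of the 924 reads of Akt2.

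**Figure D1:**
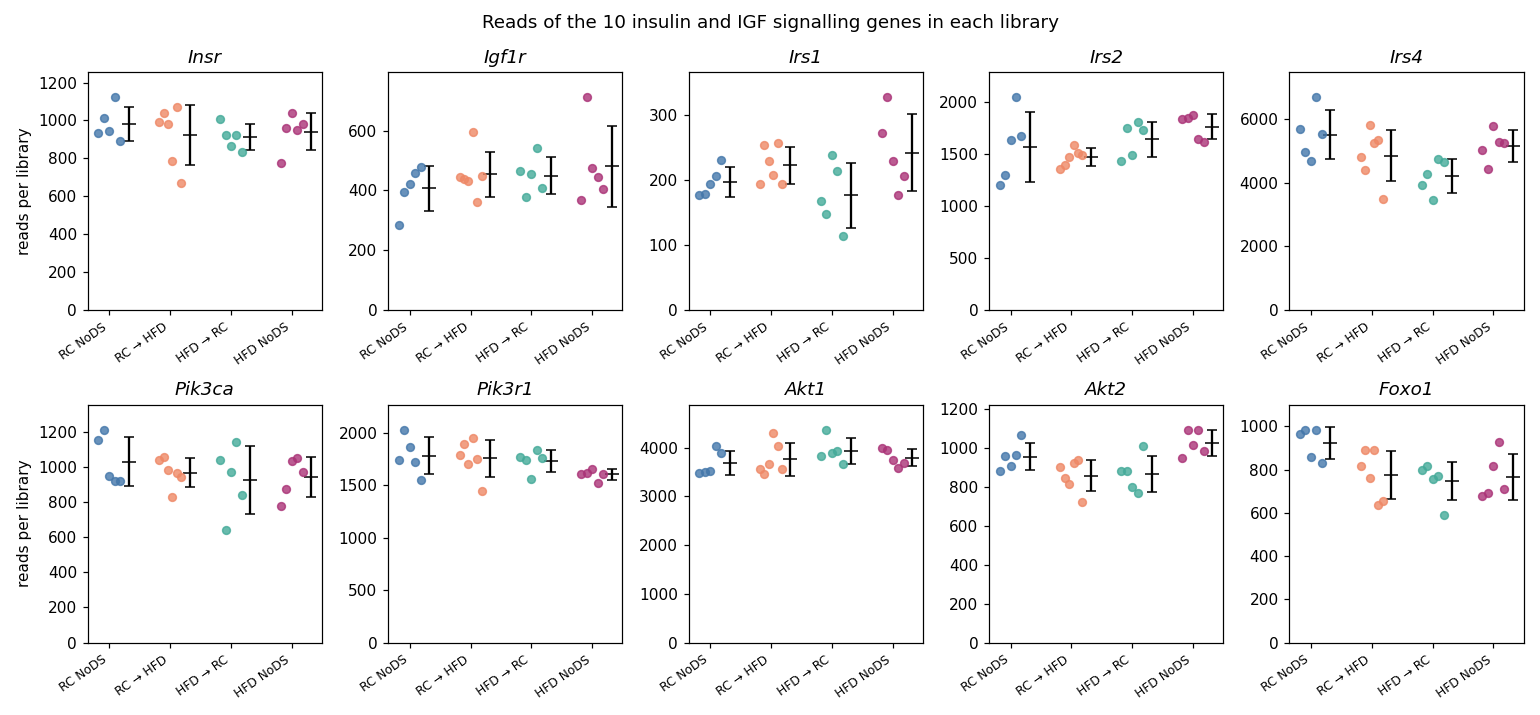
Reads per library (vertical axis, from 0) of the 10 genes in the 4 diet groups; each point is a library of 2 pooled mice, and the bar beside them is the mean with its SD. The groups overlap in most panels, and Akt2 and Irs2 in HFD NoDS lie above every RC → HFD library.

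The receptors stand first in the pathway. Insr, the insulin receptor (chromosome 8, 3150922 to 3279617, NCBIM37), was read between 668 times in RC → HFD replicate 12 and 1122 times in RC NoDS replicate 5, with group means of 981 ± 90.0 in RC NoDS, 923 ± 159 in RC → HFD, 912 ± 67.4 in HFD → RC and 941 ± 98.7 in HFD NoDS (SD; n = 5, 6, 5 and 5). Every pair of groups overlapped in Insr. Igf1r, the IGF-1 receptor, had group means of 407 ± 75.8 in RC NoDS, 453 ± 76.5 in RC → HFD, 449 ± 62.6 in HFD → RC and 480 ± 135 in HFD NoDS (SD; n = 5, 6, 5 and 5). The spread of HFD NoDS came from replicate 20 with 711 reads, against 368 to 473 in the other 4 libraries of that group. For HFD NoDS against RC NoDS the log2 difference was -0.04 for Insr (95% interval -0.28 to 0.19) and 0.26 for Igf1r (95% interval -0.09 to 0.61), so a difference in Igf1r as large as 1.53-fold lies within its interval. The Igf1r difference was 0.06 without HFD NoDS replicate 20 and 0.15 without RC NoDS replicate 1, and with the molecule estimate as a covariate it was 0.05. That of Insr turned to 0.05 with this covariate, to 0.01 without RC NoDS replicate 5 and to 0.02 without HFD NoDS replicate 19.

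Of the adaptors, Irs1 was read least. In RC NoDS it had 176, 178, 193, 206 and 231 reads; in HFD → RC it had 167, 147, 238, 214 and 114 reads. In HFD NoDS it had 272, 327, 229, 176 and 206 reads, and in RC → HFD it ran from 194 over a median of 218.5 to 256. The groups eating HFD at collection held the higher means, 242 ± 59.0 and 222 ± 28.0 against 197 ± 22.7 in RC NoDS and 176 ± 50.1 in HFD → RC (SD; n = 5, 6, 5 and 5), but all groups overlapped. For current HFD against current RC, whichever diet came before, the log2 difference was 0.33 (SE 0.14) with an unadjusted p = 0.0237 and an adjusted p = 0.892 (edgeR quasi-likelihood test, Benjamini-Hochberg over 12768 genes). It was 0.34 with the molecule estimate as a covariate, 0.26 without HFD NoDS replicate 20, which had the most Irs1 reads, and 0.19 without that library and HFD → RC replicate 17, the least complex libraries, an alternative chosen after seeing the data.

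Irs2, an adaptor of the insulin and IGF-1 receptors, had 1201, 1302, 1634, 2048 and 1679 reads in RC NoDS and 1430, 1751, 1493, 1809 and 1738 in HFD → RC. In HFD NoDS it had 1840, 1849, 1874, 1651 and 1619, and in RC → HFD it ran from 1354 over a median of 1484.5 to 1593. All 5 HFD NoDS libraries lay above all 6 RC → HFD libraries, while RC NoDS spanned both. HFD NoDS and RC → HFD differ in how long HFD was eaten and also in body weight. Between them the log2 difference was 0.26 (SE 0.10) with an unadjusted p = 0.0190 and an adjusted p = 0.592 (edgeR). Irs2 was lower in libraries of higher complexity (Pearson r = -0.58 with the log2 of estimated molecules, 21 libraries), and with that estimate as a covariate the difference was 0.19. In RC → HFD v HFD NoDS 3 of 4 tested meninges and 2 of 3 tanycyte markers, lists described below, had an unadjusted p under 0.05 (edgeR). Their median log2 differences were 0.99 and 0.45, and Irs2 had r = 0.15 and 0.33 with their sums. With the ventral and lateral hypothalamus marker sums r was 0.46 and -0.36 (0.46 and -0.54 after group means were removed). The part of these markers in the Irs2 difference was not tested.

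Irs4, an adaptor known for its high level in the hypothalamus (X chromosome, 138145541 to 138159806, NCBIM37), had the smallest p of the members. RC NoDS libraries had 5697, 4977, 4686, 6680 and 5518 reads, HFD → RC libraries 3932, 4279, 3467, 4728 and 4638. HFD NoDS libraries had 5029, 4413, 5794, 5275 and 5242 reads, and RC → HFD ran from 3499 over a median of 5021.5 to 5795. HFD → RC was the lowest group, and it overlapped RC NoDS only through its highest library, replicate 16, which exceeded RC NoDS replicate 3. Against RC NoDS the log2 difference of HFD → RC was -0.37 (SE 0.11, 95% interval -0.59 to -0.14), a ratio of 0.776, with an unadjusted p = 0.00196 and an adjusted p = 0.212 in edgeR, which misses the study's threshold of 0.15. DESeq2 gave the same contrast an adjusted p = 0.0984, and over all alternatives the adjusted p ran from 0.0984 to 0.703, the latter with the molecule estimate as a covariate, where the log2 difference was -0.41. The difference itself ran from -0.42 to -0.28 over all alternatives. Irs4 also passed the threshold without RC → HFD replicate 12 (adjusted p = 0.137), without HFD → RC replicate 16 (0.103), without HFD NoDS replicate 20 (0.137) and without both of the least complex libraries (0.125, chosen after seeing the data). HFD NoDS was above HFD → RC by 0.28 on the log2 scale (SE 0.11) with an unadjusted p = 0.0129 and an adjusted p = 0.530 (edgeR).

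The promoters of the IRS adaptors hold a stretch that the choice of genes did not use, and they are shown because they let a reader see it. RefSeq promoters (GRCm38.p6, 300 bases around the annotated start) were given for 9 of the 10 members, with 14 starts in all; Insr had no entry. Over the 83 pairs of promoters of different members, the longest run of identical bases was 17 in Irs2 and Irs4, the next longest was 12 and the median was 9. That run was found in 2 of all 32851 promoters of this length (0.00609%) when both strands were searched, those of Irs2 and Irs4. Because the run was picked as their longest match, its presence in both was fixed in advance. How often promoters of other genes share a run this long was not counted. Irs1 holds the first 10 bases of it, which 25 promoters (0.0761%) contain. Each run lies upstream of the annotated start. Capitals mark the run, and the sequences are written 5′ to 3′ on the gene's own strand, which is the minus strand for all 3.
Irs1 promoter, chr1:82291390-82291689, run at chr1:82291547-82291556: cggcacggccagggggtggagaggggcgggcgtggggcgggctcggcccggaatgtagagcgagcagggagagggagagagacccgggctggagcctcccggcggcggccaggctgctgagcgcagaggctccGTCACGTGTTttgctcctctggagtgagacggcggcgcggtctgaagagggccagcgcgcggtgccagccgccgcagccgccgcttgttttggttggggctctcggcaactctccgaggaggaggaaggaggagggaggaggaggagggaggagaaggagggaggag
Irs2 promoter, chr8:11008880-11009179, run at chr8:11008959-11008975: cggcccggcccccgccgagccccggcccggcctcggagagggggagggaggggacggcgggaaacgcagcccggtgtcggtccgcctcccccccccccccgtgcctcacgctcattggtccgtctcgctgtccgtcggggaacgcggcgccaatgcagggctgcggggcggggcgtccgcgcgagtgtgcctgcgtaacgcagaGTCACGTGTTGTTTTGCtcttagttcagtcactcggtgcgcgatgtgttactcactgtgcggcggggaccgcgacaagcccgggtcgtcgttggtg
Irs4 promoter, chrX:141725168-141725467, run at chrX:141725357-141725373: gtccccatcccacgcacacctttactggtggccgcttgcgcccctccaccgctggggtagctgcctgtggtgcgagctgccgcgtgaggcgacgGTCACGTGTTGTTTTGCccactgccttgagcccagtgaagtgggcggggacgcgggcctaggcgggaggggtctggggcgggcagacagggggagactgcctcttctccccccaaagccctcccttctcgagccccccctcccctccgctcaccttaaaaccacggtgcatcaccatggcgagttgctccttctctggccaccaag
The run contains CACGTG, the core of an E-box, which 7.15% of all promoters hold on either strand, and TGTTTTG, a core of insulin response elements, which 6.28% hold and which is also in the Irs1 promoter. The FOXO core TGTTTAC, in 3.65% of all promoters, was matched in 1 of the 14 starts, an Akt1 start. These matches describe letters in a window; no binding was measured.

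Of the PI3-kinase subunits Pik3ca varied more over the 21 libraries than Pik3r1, with coefficients of variation of 13.6% and 8.53%. Pik3ca, the catalytic subunit p110 alpha, ranged from 643 reads in HFD → RC replicate 14 to 1210 in RC NoDS replicate 2, with group means of 1030 ± 140 in RC NoDS, 968 ± 81.8 in RC → HFD, 927 ± 192 in HFD → RC and 942 ± 115 in HFD NoDS (SD; n = 5, 6, 5 and 5). Pik3r1, the regulatory subunit p85 alpha, had group means of 1778 ± 176 in RC NoDS, 1756 ± 177 in RC → HFD, 1730 ± 105 in HFD → RC and 1602 ± 49.8 in HFD NoDS (SD; n = 5, 6, 5 and 5). Its HFD NoDS libraries lay between 1521 and 1657 and overlapped each other group. HFD NoDS against RC NoDS gave log2 differences of -0.11 for Pik3ca (95% interval -0.36 to 0.14) and -0.13 for Pik3r1 (95% interval -0.30 to 0.04). The Pik3ca difference was -0.07 without RC NoDS replicate 1, -0.05 without RC NoDS replicate 2 and -0.05 without HFD NoDS replicate 19, and with the molecule estimate as a covariate it turned to 0.07. That of Pik3r1 was -0.08 without RC NoDS replicate 2.

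Akt1, the most abundant member per kb, varied least, from 3451 to 4360 reads with a coefficient of variation of 6.95% over the 21 libraries. Its interval for HFD NoDS against RC NoDS was the narrowest of the members, -0.09 to 0.21 on the log2 scale, which leaves room for at most a 1.16-fold increase or a ratio of 0.938. Akt2, the AKT isoform best known for insulin-stimulated glucose uptake (chromosome 7, 28376571 to 28425845, NCBIM37), had 947, 1092, 1017, 1091 and 983 reads in HFD NoDS. RC NoDS libraries had 884, 961, 907, 962 and 1065, HFD → RC libraries 884, 881, 799, 770 and 1008, and RC → HFD ran from 723 over a median of 874 to 939. HFD NoDS was the highest group and did not overlap RC → HFD, whose top library lay just below its lowest. The log2 difference from RC → HFD to HFD NoDS was 0.25 (SE 0.09, 95% interval 0.07 to 0.43) with an unadjusted p = 0.00763 and an adjusted p = 0.510, and that from HFD → RC to HFD NoDS was 0.23 (SE 0.09) with an unadjusted p = 0.0158 and an adjusted p = 0.535 (edgeR).

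Foxo1, the transcription factor that AKT inhibits (chromosome 3, 52072259 to 52154031, NCBIM37), was highest in RC NoDS with 964, 983, 860, 983 and 831 reads. HFD → RC libraries had 800, 815, 759, 769 and 592 reads and HFD NoDS libraries 680, 693, 818, 930 and 709, and RC → HFD ran from 636 over a median of 790.5 to 892. No HFD → RC library reached the lowest RC NoDS library, while HFD NoDS and RC → HFD overlapped RC NoDS. The log2 differences from RC NoDS were -0.28 for HFD → RC (SE 0.11), -0.25 for HFD NoDS (SE 0.11) and -0.23 for RC → HFD (SE 0.11). Their unadjusted p-values were 0.0183, 0.0319 and 0.0432 and their adjusted p-values 0.502, 0.657 and 0.745 (edgeR), so none passed, and the 3 comparisons share the RC NoDS libraries. Foxo1 moved with library complexity: Pearson r with the log2 of estimated molecules was 0.63 over the 21 libraries and 0.43 after group means were removed. With the estimate as a covariate the same log2 differences were -0.14, -0.11 and -0.13, and the part of complexity in the result was not tested beyond that.

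Read over the design, no member passed an adjusted p under 0.15 in any of the 9 comparisons fitted with edgeR, and limma-voom gave 0 members too. DESeq2 gave 1, Irs4 in RC NoDS v HFD → RC, but it gave Foxo1 no adjusted p in RC NoDS v RC → HFD. For RC NoDS v HFD NoDS, which asks what long HFD feeding and obesity did, 0 of 10 members were called against 0.0783% of all genes, and 1 (Foxo1) against 7.41% had an unadjusted p under 0.05 in edgeR. DESeq2 and limma-voom gave the same member at that level, with 1004 and 982 of all genes against 946 in edgeR. The members were 5 higher and 5 lower, with a median log2 difference of 0.01 and a median size of 0.13, against a median size of 0.11 over all genes. In 0 members did the groups not overlap, against 0.893% of all genes.

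For RC → HFD v HFD → RC, the groups that had just switched, 0 members were called against 0.00783% of all genes. The study set these groups side by side for the effect of diet and energy balance apart from body weight. By edgeR, DESeq2 and limma-voom alike 0 members had an unadjusted p under 0.05, against 5.35% of all genes by edgeR, and 0 members were without overlap against 0.486%. The median size of the members' log2 differences was 0.06, below the 0.09 of all genes. The widest interval was that of Irs1, -0.74 to 0.07, and that of Irs4 was -0.42 to 0.01 around a difference of -0.21. For current diet, the mean of the HFD-eating groups against the mean of the RC-eating groups, 0 members were called against 0.047% of all genes, and 1 member, Irs1, against 5.22% had an unadjusted p under 0.05 in edgeR. The same member was found by DESeq2 and limma-voom, with 709 and 702 of all genes against 666 in edgeR.

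The test of any difference among the 4 groups called 0 members against 0.149% of all genes, and 2 members, Irs4 (unadjusted p = 0.0139) and Akt2 (unadjusted p = 0.0299), against 7.97% had an unadjusted p under 0.05 in edgeR. Both were also under it in DESeq2 and limma-voom, where 1192 and 1040 of all genes were, against 1018 in edgeR. The remaining pairs of groups gave the same kind of count. RC NoDS v RC → HFD had 0 members called against 0.0392%, 1 at an unadjusted p under 0.05 (Foxo1) against 6.51%, and 0 without overlap against 1.17%. RC NoDS v HFD → RC had 0 members called against 0.282% of genes, 2 at an unadjusted p under 0.05 (Irs4 and Foxo1) against 8.1%, and 1 without overlap (Foxo1) against 1.32%. These groups differ in earlier HFD and in the weight lost after the switch, which cannot be told apart here.

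RC → HFD v HFD NoDS, short against long HFD feeding at different body weights, had 0 members called against 0.0157%, 2 at an unadjusted p under 0.05 (Akt2 and Irs2) against 7.49%, and the same 2 without overlap against 0.744%. HFD → RC v HFD NoDS had 0 members called against 0.0705%, 3 at an unadjusted p under 0.05 (Irs1, Irs4 and Akt2) against 7.93%, and 0 without overlap against 1.02%. In this last comparison 8 members were higher and 2 lower in HFD NoDS, with a median log2 difference of 0.07 against -0.0047 over all genes. With 10 members a single gene is 10 percent, so these shares describe the list and test nothing; DESeq2 and limma-voom gave the same members at an unadjusted p under 0.05 in these pairs. Scaling by library size alone turned the direction of none of the 40 member differences followed here.

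Whether the effect of current diet depended on the earlier diet was asked by the interaction, the difference of HFD NoDS from HFD → RC minus that of RC → HFD from RC NoDS. It called 0 members against 0.0313% of all genes in edgeR, and 2 against 8.84% had an unadjusted p under 0.05 in edgeR. These members, Irs4 and Akt2, were under it in DESeq2 and limma-voom too, as were 1192 and 1172 of all genes against 1129 in edgeR. Irs4 had an interaction of 0.45 on the log2 scale (SE 0.15) with an unadjusted p = 0.00552 and an adjusted p = 0.313 (edgeR). Akt2 had 0.36 (SE 0.13) with an unadjusted p = 0.00738 and an adjusted p = 0.332 (edgeR). In both genes the groups that kept their diet, RC NoDS and HFD NoDS, had higher means than the groups that had switched: 5512 ± 769 and 5151 ± 499 reads against 4848 ± 813 and 4209 ± 521 for Irs4, and 956 ± 69.9 and 1026 ± 64.7 against 858 ± 81.3 and 868 ± 92.7 for Akt2 (SD; n = 5, 5, 6 and 5). With HFD NoDS replicate 20 and HFD → RC replicate 17 left out, the 2 libraries with the lowest molecule estimates and an alternative chosen after seeing the data, the adjusted p for Irs4 was 0.144; over all alternatives it ran from 0.144 to 0.572.

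**Figure D2:**
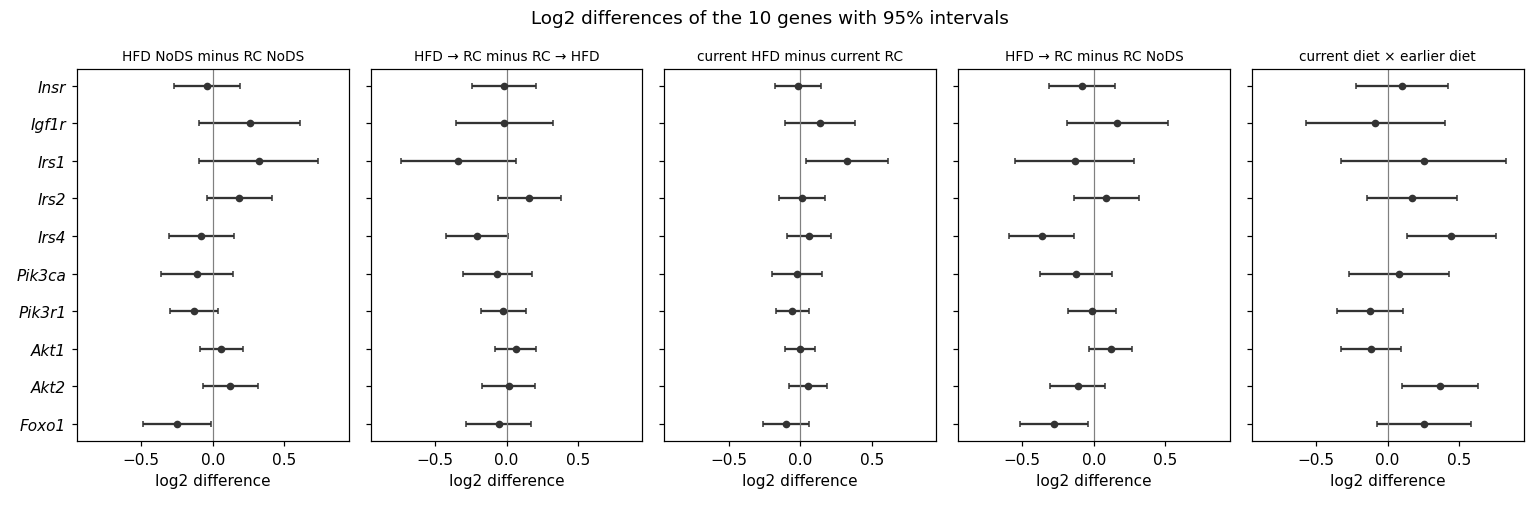
Log2 differences (horizontal axis) of the 10 genes in 5 of the comparisons, with bars for the 95% interval from the edgeR standard error with 17 residual degrees of freedom. Most intervals include 0. Irs4 lies farthest from it, at 0.45 in the interaction (current diet × earlier diet) and at -0.37 in HFD → RC minus RC NoDS.

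Markers of other cells moved with Irs4 and Akt2. The tanycyte list, cells lining the floor of the third ventricle, was read with 3 of 3 markers, none near 0, and Col23a1 was the most abundant with 3873 reads on average. Its summed reads were 5537, 4682, 4170, 6134 and 6291 in RC NoDS and 5289, 4465, 5880, 6382 and 5457 in HFD NoDS. HFD → RC libraries had 3759, 5136, 3054, 3760 and 4782, and RC → HFD libraries 3671, 3031, 4827, 5273, 4421 and 2493. The switched groups were again the lower ones, though the groups overlapped. Over the 21 libraries Irs4 had a Pearson r of 0.81 with this sum, and 0.85 after group means were removed. Col23a1 made up most of the sum, so these values speak mainly of that marker. In the interaction 2 of 3 tanycyte markers, Crym and Col23a1, had an unadjusted p under 0.05 (edgeR), and Rax did not.

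Irs4 went the other way from the neuron list (5 of 5 markers, none near 0, Snap25 the most abundant with 10074 reads), with r = -0.76, and from the oligodendrocyte list (5 of 5 markers, none near 0, Mbp the most abundant with 31251 reads), with r = -0.58. The neuron sum ran from 29756 reads in RC NoDS replicate 6 to 38369 in HFD → RC replicate 15, and its group means were 32326 ± 1998 in RC NoDS, 34923 ± 2054 in RC → HFD, 35178 ± 2467 in HFD → RC and 33518 ± 1697 in HFD NoDS (SD; n = 5, 6, 5 and 5). Oligodendrocyte markers summed to 32809, 38399, 47713, 33142 and 48773 reads in RC NoDS and to 93476, 126423, 71230, 40601 and 57704 in HFD → RC. They summed to 51251, 88886, 46474, 86412 and 39730 in HFD NoDS, and RC → HFD ran from 38396 to 56598. In 4 of 5 HFD → RC libraries that sum exceeded all RC NoDS libraries, and replicate 16, the exception, had the most Irs4 of the HFD → RC libraries. Replicate 14, with the highest sum, had 4279 Irs4 reads, and replicate 15, with the fewest Irs4 reads of the group, had a sum of 71230. In RC NoDS v HFD → RC, where Irs4 had its smallest p, 3 of 5 oligodendrocyte markers were called in edgeR and all 5 had an unadjusted p under 0.05, with a median log2 difference of 0.85. In HFD NoDS the oligodendrocyte sum had a mean of 62551 ± 23291 against 40167 ± 7707 in RC NoDS (SD; n = 5 and 5). Between those groups all 5 markers had an unadjusted p under 0.05 and 0 were called in edgeR, and the Irs4 difference was -0.08 on the log2 scale. Irs4 also had r = 0.59 with the choroid plexus list (5 of 5 markers, none near 0, Clic6 the most abundant with 842 reads, sums from 979 in HFD → RC replicate 14 to 1385 in HFD → RC replicate 17). With the ependyma list it had r = -0.53 (3 of 3 markers, none near 0, Foxj1 the most abundant with 1020 reads, sums from 967 in RC → HFD replicate 11 to 2254 in RC → HFD replicate 12). The part of these lists and of the tanycyte list in the Irs4 result was not tested.

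Akt2 followed the meninges list, of which 5 of 5 markers were read, none near 0, with Dcn the most abundant at 662 reads. Its summed reads were 1132, 2443, 2309, 1756 and 3127 in RC NoDS and 616, 3592, 2068, 2614 and 2634 in HFD NoDS. HFD → RC libraries had 1565, 1550, 563, 677 and 2057 and RC → HFD libraries 1264, 870, 1413, 790, 1727 and 921. The kept-diet groups had the higher means here too, but the groups overlapped: RC NoDS replicate 1 and HFD NoDS replicate 19 were low, and HFD → RC replicate 17 lay above RC NoDS replicates 1 and 5. Over the 21 libraries r was 0.73 between Akt2 and this sum, 0.64 after group means were removed, and 0.72 between Akt2 and the tanycyte sum. Akt2 went against the neuron sum (r = -0.61, and -0.59 after group means were removed). With the endothelium list (5 of 5 markers, none near 0, Flt1 the most abundant with 948 reads, sums from 1762 in HFD → RC replicate 16 to 2483 in RC NoDS replicate 6) Akt2 had r = 0.42, and 0.64 after group means were removed. Its r was 0.48 (0.42 after group means were removed) with the microglia sum, which ran from 2878 to 3855 reads with Csf1r the most abundant of 5 of 5 markers. With the blood sum it was 0.43 (0.45 after group means were removed) and with the choroid plexus sum 0.32 (0.57 after group means were removed). The part of these cells in the Akt2 result was not tested. In a punch of mixed tissue, fewer cells of a type and less RNA per cell cannot be told apart.

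**Figure D3:**
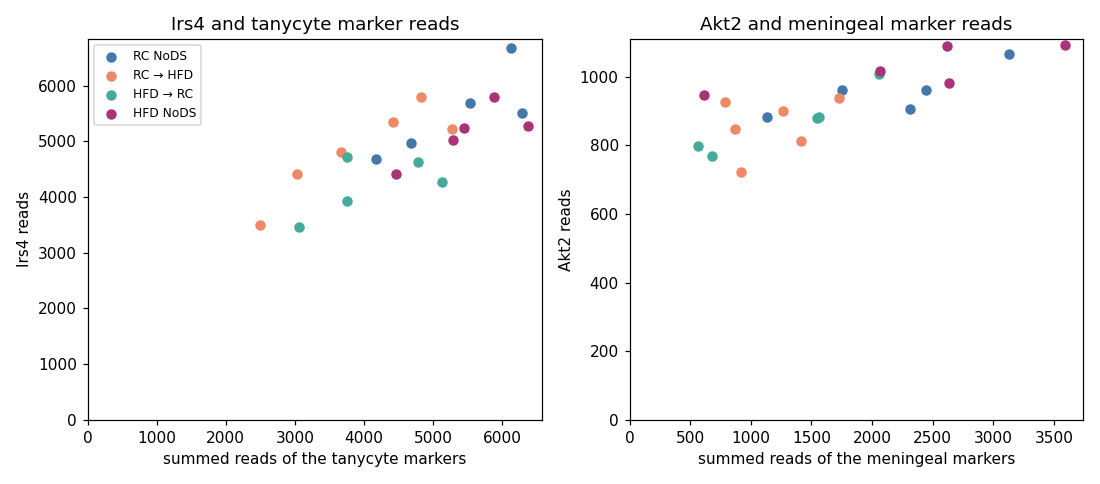
Irs4 reads against the summed reads of 3 tanycyte markers, mostly Col23a1 (left), and Akt2 reads against the summed reads of 5 meninges markers (right). Each point is a library and each colour a diet group, with axes from 0. Pearson r over the 21 libraries is 0.81 on the left and 0.73 on the right.

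Among themselves the members did not move as a block. Over the 21 libraries the strongest positive Pearson r of log2 normalised counts was 0.59, between Irs2 and Akt1 (0.64 after group means were removed), followed by 0.48 between Igf1r and Irs2. The strongest negative was -0.68, between Pik3ca and Akt1, then -0.55 between Irs2 and Pik3ca. Insr and Igf1r had r = -0.05, and Insr and Irs4 0.44. All these share libraries whose complexity differed, and Akt1, Irs2 and Pik3ca had r = -0.56, -0.58 and 0.51 with the log2 of estimated molecules.

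The genes whose pattern over the 21 libraries was most like that of a member were taken by the highest Pearson r. For Insr they were Bod1l (0.76), Mib1 (0.75) and Zfp619 (0.74), and for Igf1r Solh (0.83), Scap (0.77) and Rxra (0.77). For Irs1 they were Porcn (0.81), Aacs (0.80) and Fzr1 (0.80), and for Irs2 Fbf1 (0.78), Cuedc1 (0.78) and Gpsm1 (0.78). For Irs4 they were Gabre (0.86), a GABA-A receptor subunit, Dgkk (0.85) and Ecel1 (0.83). These are the extremes of 12768 genes, and values of this size were reached for each of the 5 genes.

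The wider pathway was read through a list of 89 genes by role, of which 87 were in the table, with Hras under its older symbol Hras1, and 81 passed the High Filter. Ins1 and Ins2 were not analysed here. Igf1, the ligand of Igf1r, fell below the filter with group means of 29.6 ± 8.17 reads in RC NoDS, 13.2 ± 7.81 in RC → HFD, 21.0 ± 9.67 in HFD → RC and 18.4 ± 10.2 in HFD NoDS (SD; n = 5, 6, 5 and 5), so it was not tested in edgeR at this filter. Of the 81 genes 2 were called in any comparison in edgeR, Npy and Agrp, or 2.47% against 53 of all 12768 genes (0.415%). The study had already reported both as responding to diet, and the list was written with earlier results known. The shares of the list given here therefore describe it and test nothing. With DESeq2 Socs3 passed too, for current diet (adjusted p = 0.0616) and in RC NoDS v HFD NoDS (adjusted p = 0.128). In the test of all 4 groups 10 of 81 had an unadjusted p under 0.05, or 12.3% against 7.97% of all genes. By role these were 4 of 17 FOXO target genes (Agrp, Npy, Pomc and Cpe), 2 of 14 brakes on the pathway, 2 of 6 binding proteins, 1 of 6 further adaptors and 1 of 17 AKT and mTORC1 effectors. By the same test there were 0 of 4 further PI3-kinase subunits, 0 of 6 genes of AKT activation, 0 of 9 of the RAS-MAPK arm, 0 of 1 ligand (Igf2) and 0 of 1 further receptor (Igf2r).

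Npy and Agrp, orexigenic peptides of the same arcuate neurons and genes that FOXO1 acts on, were the exception in the list in edgeR. Npy had 5015, 4378, 4258, 5713 and 4745 reads in RC NoDS and 1639, 1551, 2103, 2638 and 2006 in HFD NoDS. In HFD → RC it had 3058, 5214, 2669, 2832 and 4574 reads, and in RC → HFD from 1390 over a median of 1937 to 2295. All RC-eating libraries lay above all HFD-eating libraries, and the HFD → RC libraries spread from just above the HFD range into the RC NoDS range. Npy was lower on current HFD by a log2 difference of -1.10 (SE 0.11, adjusted p = 1.03e-06, edgeR), and Agrp by -0.93 (SE 0.14, adjusted p = 0.000777, edgeR).

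In RC NoDS v HFD NoDS the log2 difference was -1.26 for Npy (SE 0.16, adjusted p = 7.79e-05, edgeR) and -0.97 for Agrp (SE 0.20, adjusted p = 0.0507, edgeR). Without RC NoDS replicate 1 or 5, or HFD NoDS replicate 19, 21 or 24, the Agrp call in that comparison was lost, with adjusted p-values of 0.166, 0.243, 0.231, 0.226 and 0.155. Over all its alternatives the Agrp adjusted p ran from 0.00965 to 0.243. Npy passed between the switched groups (0.94 higher in HFD → RC on the log2 scale, SE 0.15, adjusted p = 0.0116, edgeR), and Agrp did not (0.90, SE 0.19, adjusted p = 0.303). RC → HFD was below RC NoDS by a log2 difference of -1.31 in Npy (SE 0.15, adjusted p = 2.36e-05, edgeR) and -1.24 in Agrp (SE 0.19, adjusted p = 0.00154, edgeR). HFD NoDS was below HFD → RC in Npy by -0.89 (SE 0.16, adjusted p = 0.0314, edgeR), a call lost without HFD → RC replicate 17 (0.204), without HFD NoDS replicate 19 (0.158), without both of the least complex libraries (0.247, chosen after seeing the data) and with only the groups compared (0.341). The study accepted punches by the ratio of Agrp and Pomc to Hcrt, so Agrp levels were not free of that choice.

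Other markers differed in the comparisons that called Npy and Agrp. The lateral hypothalamus list (2 of 2 markers, none near 0, Pmch the most abundant with 1079 reads) summed to 1003, 1827, 696, 439 and 378 reads in RC NoDS and 678, 2344, 2013, 753 and 2003 in HFD NoDS. RC → HFD libraries had 2400, 2400, 2060, 829, 831 and 1412, and HFD → RC libraries 1842, 791, 954, 1427 and 902. For current diet both markers had an unadjusted p under 0.05 with a median log2 difference of 0.85, and Hcrt was called in RC NoDS v HFD NoDS in edgeR. Both had such a p in RC NoDS v RC → HFD as well (median 1.18), and 0 had it in RC → HFD v HFD → RC. The blood list (4 of 4 markers, none near 0, Hbb-b1 the most abundant with 1437 reads) summed to 3096, 4064, 3894, 3395 and 3039 reads in RC NoDS and 1457, 3831, 1418, 2935 and 1879 in HFD NoDS. RC → HFD libraries had 1656, 1938, 1958, 965, 1800 and 1127, and HFD → RC libraries 6215, 2192, 2448, 607 and 3231. For current diet all 4 blood markers had an unadjusted p under 0.05 with a median log2 difference of -0.73, and 0 were called in edgeR. All 4 had such a p also in RC NoDS v RC → HFD (median -1.11) and in RC → HFD v HFD → RC (0.90), with 0 called. In RC NoDS v HFD NoDS 1 of 4 had it, and in HFD → RC v HFD NoDS 0. All 5 oligodendrocyte markers, whose sums are given with Irs4, had an unadjusted p under 0.05 in RC → HFD v HFD → RC (median log2 difference 0.74) and in RC NoDS v HFD NoDS (0.58), with 0 called in either in edgeR, and 0 had such a p for current diet. The tanycyte and meninges lists, whose sums are given with Irs4 and Akt2, moved with these genes inside the groups. Npy had r = 0.41 with the tanycyte sum over the 21 libraries and 0.79 after group means were removed, and Agrp had r = 0.52 and 0.70 with the meninges sum. The other pairings were weaker: 0.27 and 0.38 for Npy with the meninges sum, and 0.43 and 0.50 for Agrp with the tanycyte sum. In RC NoDS v RC → HFD all 3 tanycyte markers had an unadjusted p under 0.05, with a median log2 difference of -0.52, and 0 were called in edgeR, while for current diet 0 had such a p. Of the 4 meninges markers tested, 2 had such a p in RC NoDS v RC → HFD (median -0.88, 0 called) and 0 for current diet. In HFD → RC v HFD NoDS 2 tanycyte and 2 meninges markers had it, with medians of 0.40 and 0.84. The part of these lists in the Npy and Agrp values was not tested.

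Pomc, the anorexigenic counterpart, was higher on current HFD by 0.40 on the log2 scale (SE 0.12) with an unadjusted p = 0.00315 and an adjusted p = 0.745 (edgeR). Among the brakes, Socs3, an inhibitor of leptin and insulin signalling, had 145, 183, 169, 192 and 241 reads in RC NoDS and 346, 260, 320, 381 and 280 in HFD NoDS. Those groups did not overlap, and HFD → RC, with 148, 222, 147, 231 and 217 reads, lay in the RC NoDS range. RC → HFD had 210, 192, 205, 205, 382 and 323 reads, so 4 of its 6 libraries lay in that range as well although they ate HFD. Its log2 difference for current HFD was 0.59 (SE 0.14) with an unadjusted p = 0.000269 and an adjusted p = 0.382 in edgeR, while DESeq2 gave an adjusted p = 0.0616; over the alternatives it ran from 0.0616 to 0.999. With the molecule estimate as a covariate that difference was 0.48. For HFD NoDS against RC NoDS the log2 difference was 0.79 (SE 0.20, adjusted p = 0.468, edgeR), and DESeq2 gave an adjusted p = 0.128, the lowest of a range up to 1.00. With the same covariate this difference was 0.47. Socs3 had r = -0.52 with the log2 of estimated molecules and 0.49 with the ventral hypothalamus marker sum (-0.49 and 0.48 after group means were removed). The part of neither was tested beyond the covariate.

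Grb14, an adaptor that binds and inhibits the active insulin receptor, had 381, 380, 415, 372 and 448 reads in HFD → RC. RC NoDS libraries had 315, 302, 310, 278 and 314, and RC → HFD ran from 253 over a median of 297 to 326. All HFD → RC libraries lay above both of those groups, while HFD NoDS, from 237 to 425, overlapped each. The log2 difference of HFD → RC was 0.42 from RC NoDS (SE 0.14, unadjusted p = 0.00538, adjusted p = 0.327, edgeR) and 0.43 from RC → HFD (SE 0.13, unadjusted p = 0.00287, adjusted p = 0.764, edgeR). The difference from RC NoDS was 0.29 with the molecule estimate as a covariate. In these 2 comparisons all 5 oligodendrocyte markers had an unadjusted p under 0.05 (edgeR). Their median log2 differences were 0.85 and 0.74, with 3 and 0 markers called. All 5 had such a p in RC NoDS v HFD NoDS too (0.58), where the Grb14 difference was 0.06. The part of these cells in the Grb14 values was not tested.

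The binding proteins Igfbp2 and Igfbp6, which hold IGFs outside the cell, had interactions of 2.32 (SE 0.69, adjusted p = 0.254) and 2.72 (SE 0.82, adjusted p = 0.259) on the log2 scale in edgeR. Without HFD NoDS replicate 19 these passed with adjusted p-values of 0.0937 and 0.0931, the lowest of ranges up to 0.506 and 0.511. Both followed the meninges markers over the 21 libraries, with r = 0.94 for Igfbp2 and 0.88 for Igfbp6, and so did Igf2 with r = 0.93, a gene named here after its values were seen; what part the meninges had in these values was not tested. Igfbp2 ran from 48 reads in HFD → RC replicate 15 to 1065 in HFD NoDS replicate 20, the libraries with the lowest and the highest meninges sum. Of the others past an unadjusted p under 0.05, Sh2b1, an adaptor of the insulin and leptin receptors, was higher on current HFD by 0.19 (SE 0.07, adjusted p = 0.821), Cpe, a prohormone carboxypeptidase, lower by a log2 difference of -0.11 (SE 0.04, adjusted p = 0.842), and Tbc1d1, a Rab GTPase-activating protein that AKT phosphorylates, was at -0.29 in HFD NoDS against RC → HFD (SE 0.09, adjusted p = 0.490), all on the log2 scale in edgeR. With the molecule estimate as a covariate the Sh2b1 difference was 0.11 and that of Cpe -0.08, and their r with the log2 of estimated molecules was -0.54 for Sh2b1 and 0.46 for Cpe (-0.64 and 0.55 after group means were removed). With the ventral hypothalamus marker sum r was 0.66 for Sh2b1 and -0.59 for Cpe (0.64 and -0.56 after group means were removed), and the part of neither was tested beyond the covariate.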

How the data were processed

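PolyA RNA of ventral hypothalamus punches was sequenced in 21 libraries. The authors aligned reads to mm9 with STAR 2.5.1b and Ensembl gene models, merged runs with Picard 2.7.1, left out ribosomal and mitochondrial reads, re-sampled each library to a common depth and deposited whole read counts per gene. Groups came from the labels. The deposited counts were fitted here with edgeR 4.0.16 (quasi-likelihood, TMM, R 4.3.3) on genes averaging at least 50 reads, with a mean per group over all 21 libraries and Benjamini-Hochberg adjustment over all 12768 genes; the study's threshold of 0.15 was kept. SE is the log2 difference over the square root of F. The code was tested on simulated counts. Alternatives were DESeq2 1.42.0, limma-voom 3.58.1, a mean of at least 5 reads, no filter, library size only, only the groups compared, the molecule estimate as a covariate, and leaving out each library. Gene positions and exon lengths are from GENCODE on NCBIM37 (mm9). The members and lists were chosen with earlier results of these data known. Named genes of the wider list were those called in any comparison in edgeR and up to 12 with the smallest unadjusted p under 0.05 in the 4-group test, with Agrp, Npy and Pomc. The 3 nearest genes by r were named for receptors and IRS adaptors. The promoter search was chosen after seeing the data. All libraries were pooled and sequenced together; dissection order is not given in the sources used here.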

Additional observations from a re-analysis of the deposited data

Results flagged for a closer look

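Of the 40 sets of member reads within a group, 2 held a library far from the rest, and chance alone gives about 1 in 20 such sets. Igf1r had 595 reads in RC → HFD replicate 10, against 362 to 448 in the other 5 libraries of the group. Without it the log2 difference of HFD → RC from RC → HFD was 0.08 in place of -0.01. Foxo1 had 592 reads in HFD → RC replicate 17, against 759 to 815 in the other 4. Without it the log2 difference of HFD → RC from RC NoDS was -0.21 in place of -0.28, and that library had the second lowest molecule estimate.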

How the results depend on the processing

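Of 1147 recomputed member differences (40 differences, up to 29 alternatives each), 1088 kept their direction and side of the threshold, 53 of 15 differences turned sign and 6 passed the threshold, all 6 for Irs4. No sign turned with DESeq2, limma-voom, the other filters, library size only or only the groups compared. The cause of these changes was not tested. The alternative leaving out the 2 least complex libraries was chosen after seeing the data. DESeq2 gave no adjusted p for Agrp, Npy and Foxo1 in RC NoDS v RC → HFD, so its count of members called there could not include Foxo1.

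With molecules as a covariate the log2 difference turned to 0.0479 for Insr, -0.0229 for Irs2, 0.0723 for Pik3ca and -0.0499 for Akt1 in RC NoDS v HFD NoDS. It turned to 0.0148 for Insr and -0.0104 for Akt2 in RC → HFD v HFD → RC, and to 0.0165 for Insr, -0.0573 for Irs2 and 0.0413 for Pik3ca for current diet. Without the 2 least complex libraries it turned in RC → HFD v HFD → RC to 0.0160 for Insr, 0.0196 for Igf1r, -0.0404 for Akt2 and 0.0206 for Foxo1.

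Leaving out 1 library at a time gave ranges that crossed 0. In RC NoDS v HFD NoDS they were -0.0792 to 0.0164 for Insr and -0.134 to 0.00230 for Irs4. In RC → HFD v HFD → RC they were -0.0929 to 0.0331 for Insr, -0.0878 to 0.0797 for Igf1r, -0.146 to 0.0412 for Pik3ca, -0.0701 to 0.0115 for Pik3r1, -0.0394 to 0.0580 for Akt2 and -0.104 to 0.0212 for Foxo1. For current diet they were -0.0379 to 0.0251 for Insr, -0.0304 to 0.0728 for Irs2, -0.0759 to 0.0180 for Pik3ca and -0.0242 to 0.0187 for Akt1.

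Members called moved from 0 to 1 (Irs4) in RC NoDS v HFD → RC with DESeq2, without the 2 least complex libraries and in the leave-one-out range of 0 to 1, and in the interaction from 0 to 1 without those 2 libraries. Genes called were 10 in RC NoDS v HFD NoDS (DESeq2 17, molecules 5, leaving out 1 library 5 to 14). They were 1 in RC → HFD v HFD → RC (DESeq2 5, mean of at least 5 reads 2, no filter 3, without the 2 libraries 2, leaving out 1 library 1 to 41). They were 19 over all 4 groups (DESeq2 133, no filter 31, molecules 9, without the 2 libraries 45, leaving out 1 library 9 to 80) and 6 for current diet (DESeq2 12, leaving out 1 library 4 to 10). They were 5 in RC NoDS v RC → HFD (DESeq2 96, only the groups compared 24, without the 2 libraries 15, leaving out 1 library 4 to 11). They were 36 in RC NoDS v HFD → RC (DESeq2 147, limma-voom 7, library size only 10, molecules 1, without the 2 libraries 137, leaving out 1 library 1 to 205, the highest without HFD → RC replicate 16). They were 2 in RC → HFD v HFD NoDS (DESeq2 32, mean of at least 5 reads 1, no filter 5, only the groups compared 4, molecules 1, without the 2 libraries 1, leaving out 1 library 1 to 31, the highest without HFD NoDS replicate 19). They were 9 in HFD → RC v HFD NoDS (DESeq2 44, mean of at least 5 reads 4, no filter 5, only the groups compared 1, molecules 15, without the 2 libraries 3, leaving out 1 library 1 to 13). They were 4 in the interaction (DESeq2 116, limma-voom 15, mean of at least 5 reads 0, library size only 2, molecules 11, without the 2 libraries 191, leaving out 1 library 0 to 124, the highest without HFD NoDS replicate 20).

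With pools of 2 mice and 5 or 6 libraries a group, the 95% interval of a member's log2 difference reached a median of 0.23 to either side in RC NoDS v HFD NoDS.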
